A study of Mus musculus with 8 samples.

Results

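Regulators of G protein signalling (RGS proteins) shorten the signals of G protein-coupled receptors. A receptor that binds its ligand loads the G alpha subunit with GTP, alpha separates from the beta-gamma pair, and both parts act on effectors until alpha cleaves the GTP. The RGS domain speeds this cleavage, and in lymphocytes RGS proteins limit responses to chemokines and other ligands that guide migration. G gamma subunits carry a prenyl lipid at their end, for most of them a geranylgeranyl group, and Pggt1b encodes the beta subunit of the type I transferase that attaches it.

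The genes described here are 10 RGS genes, Rgs1, Rgs2, Rgs3, Rgs10, Rgs11, Rgs12, Rgs14, Rgs16, Rgs18 and Rgs19, out of 22180 genes with a probe set annotated to 1 symbol. They were chosen by name, with earlier results of these data known. Each was represented by its brightest probe set over all arrays. The cells were sorted CD4 single-positive (CD4SP) thymocytes, T cells that have been selected into the helper lineage and have not yet left the thymus, from mice on a C57BL/6 background. The 8 arrays comprise 4 of wild-type cells (WT) and 4 of cells labelled Pggt1b_KO (KO), 1 array per sample, and the labels name no other allele and no agent given to the mice for either group. The labels state neither the age of the mice nor a Cre driver nor which part of Pggt1b was deleted. Replicate numbers are names only. The labels do not tie the samples to separate mice, and p-values therefore measure only the spread between these samples, which may be technical. Values are log2 signals after RMA, the background correction and quantile normalization applied by the authors, and they can be compared between arrays for 1 gene but not between genes. In bulk RNA, fewer cells of a type and less RNA per cell cannot be told apart.

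Pggt1b itself stood at 8.35, 8.38, 8.29 and 8.36 in WT and at 7.89, 7.57, 7.69 and 7.86 in KO, and fell by 0.59 log2 (SE 0.072, limma adjusted p = 0.00141). The CD4SP marker list held 9 tested genes, of which limma called 0 (0 at an unadjusted p under 0.05), with Cd4 at 12.27 in WT and 12.26 in KO. Across genes, Pearson correlations ran from 0.990 to 0.995 for arrays of like genotype and from 0.985 to 0.990 for unlike ones. Among 11585 genes tested with limma 1503, or 13.0%, were called at a Benjamini-Hochberg adjusted p under 0.05, with 515 (4.45%) higher and 988 (8.53%) lower in KO. The higher share of the calls was 34.3%, and it depended on the setting: 22.5% after centring the arrays on their medians, 46.2% at an adjusted p under 0.01, 52.7% without KO replicates 1 and 2, and 56.1% over all probe sets, so that in the last 2 settings higher calls outnumbered lower ones. In 20.3% of tested genes the KO and WT arrays did not overlap.

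Of the 10 RGS genes 9 reached the intensity filter, a mean log2 signal over all arrays of at least 5.56, and Rgs12 only through its WT arrays. Rgs1, Rgs16, Rgs10 and Rgs12 fell in KO, Rgs11 rose, and Rgs2, Rgs3, Rgs14 and Rgs19 were not called. The 5 called genes are set against the 13.0% called over all tested genes, and the 6 genes whose KO and WT arrays did not overlap against 20.3%. Because the genes were chosen with earlier results of these data known, these shares are a description with no test. The median difference of the 9 genes was -0.20 log2, against -0.03 over all tested genes. Their median absolute difference was 0.27, against 0.095. All differences below are log2 values of KO minus those of WT.

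**Figure D1:**
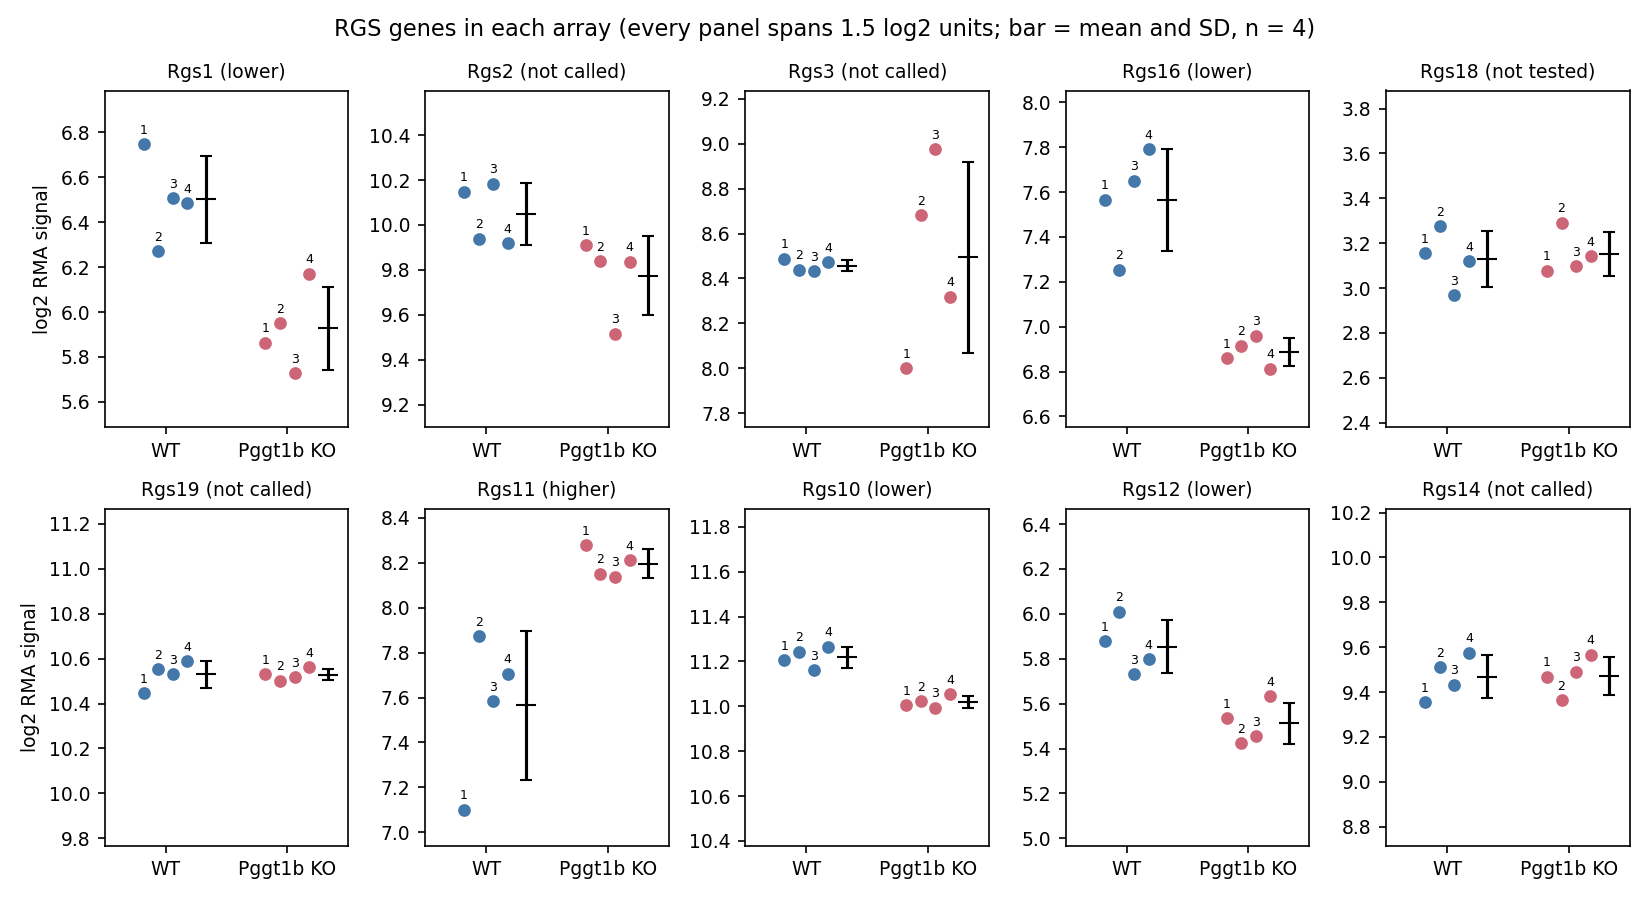
Log2 RMA signal of the 10 RGS genes in each of the 4 WT (blue) and 4 KO (red) arrays, numbered by replicate, with mean and SD beside the points. All KO arrays lie below all WT arrays for Rgs1, Rgs2, Rgs16, Rgs10 and Rgs12 and above them for Rgs11, while Rgs3 spreads from 8.00 to 8.98 in KO and from 8.43 to 8.49 in WT.

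The R4 subfamily, small proteins that consist of little more than the RGS domain, is represented by 5 genes. Among these 5 genes 4 were tested, of which 2 fell and 0 rose (limma; 3 lower and 0 higher at an unadjusted p under 0.05). Over all tested genes 8.53% were called lower. Rgs8, also of this subfamily and tested, is given with the other RGS genes below. Rgs16, which acts on the Gi and Gq classes of alpha subunit and is induced when T cells are activated, stood at 7.57, 7.25, 7.65 and 7.79 in WT. In KO it stood at 6.86, 6.92, 6.96 and 6.81. The groups did not overlap, and the KO arrays lay within 0.15 log2 of each other while the WT arrays spanned 0.54. Rgs16 fell 1.60-fold, by 0.68 log2 (SE 0.10, limma adjusted p = 0.00349), from a mean of 7.57 ± 0.23 to 6.89 ± 0.064 (SD, n = 4 per genotype). Its call held when any single array was left out, with adjusted p from 0.000568 to 0.0137.

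Rgs1 limits the response of lymphocytes to chemokines and is abundant in activated and tissue-resident cells. Its signal was 6.75, 6.27, 6.51 and 6.49 in WT and 5.86, 5.95, 5.73 and 6.17 in KO. The lowest WT array, replicate 2, and the highest KO array, replicate 4, were the nearest values of the genotypes, and they did not overlap. Rgs1 fell 1.49-fold, by 0.58 log2 (SE 0.11, limma adjusted p = 0.0117), from 6.50 ± 0.19 to 5.93 ± 0.19 (SD, n = 4 per genotype). Leaving out any single array left the call in place, with adjusted p from 0.00881 to 0.0377.

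Rgs2 acts mainly on Gq and is an immediate-early gene in T cells. It stood at 10.15, 9.94, 10.18 and 9.92 in WT and at 9.91, 9.84, 9.52 and 9.84 in KO. The highest KO array lay just under the lowest WT array, and KO replicate 3 was the lowest of all. The difference of -0.27 (SE 0.096, 95% interval -0.49 to -0.06) was not called (limma adjusted p = 0.0940). Its two-sided exact permutation p of 0.0286 is the smallest that 4 against 4 arrays can give. Every gene whose KO and WT arrays do not overlap has this value. With the mean of the heat-shock genes Hspa1a and Hspa1b as a covariate the difference was -0.36 with an adjusted p of 0.0346. In the other 19 alternative settings Rgs2 was not called, with adjusted p up to 0.273. A second Rgs2 probe set, at 3.68 to 4.08 over all arrays, was below the filter and overlapped between genotypes.

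Rgs3, which acts on the Gi and Gq classes and has long and short isoforms, differed from the other genes in its spread. The WT arrays stood at 8.49, 8.44, 8.43 and 8.47, and the KO arrays at 8.00, 8.68, 8.98 and 8.32. KO replicates 1 and 4 lay below every WT array and KO replicates 2 and 3 above every one. The means were 8.46 ± 0.026 in WT and 8.49 ± 0.43 in KO (SD, n = 4 per genotype). The difference was 0.04 (SE 0.17, 95% interval -0.35 to 0.42), with a limma adjusted p of 0.914. The ratio of the KO to the WT SD was 16.1, which ranked 3 of 11585 tested genes, whose median ratio was 0.919. Hspa1a stood at 9.94, 9.27, 4.27 and 7.71 in KO replicates 1 to 4. It also varied in WT, at 4.84, 5.65, 8.00 and 6.04 in replicates 1 to 4, where Rgs3 spanned only 0.055. With the heat-shock covariate used for Rgs2, the Rgs3 difference was 0.19 (SE 0.15, limma adjusted p = 0.465). The part of the heat-shock response in the spread of Rgs3 was not tested.

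Rgs18 is best known from platelets and megakaryocytes. It stood at 3.15, 3.28, 2.97 and 3.12 in WT and at 3.08, 3.29, 3.10 and 3.14 in KO, below the filter in every array, and was not tested (adjusted p = 0.924 with no intensity filter). Of the platelet and megakaryocyte markers 1 of 5 measured, Itga2b, reached the filter. All its KO arrays lay above all WT arrays, but its difference of 0.18 was not called (limma adjusted p = 0.0957). At an unadjusted p under 0.05 the list had 1 gene higher and 0 lower. The summed signal of the list was 7.53 to 7.74 in WT and 7.63 to 7.72 in KO on the log2 scale. The RefSeq gene order places Rgs2, Rgs13, Rgs1, Rgs21 and Rgs18 next to each other among coding genes. Within this run Rgs1 fell, Rgs2 was not called, and Rgs13, Rgs21 and Rgs18 were below the filter.

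Promoter sequence is shown for Rgs16 and Rgs2, the R4 genes among those listed in the RefSeq promoter table (build GRCm38.p6) whose listed start is also the outer end of the gene. The table held windows for 6 of the 10 genes, and those of Rgs3, Rgs10, Rgs12 and Rgs19 begin inside the gene's annotated span. Rgs1, Rgs11, Rgs14 and Rgs18 had no entry. The 250 bases before the start are printed 5′ to 3′ on the gene's strand, chr1:153740103-153740352 on the plus strand for Rgs16 and chr1:144004150-144004399 on the minus strand for Rgs2. Capitals mark matches to the motif letters given after the sequences.
Rgs16: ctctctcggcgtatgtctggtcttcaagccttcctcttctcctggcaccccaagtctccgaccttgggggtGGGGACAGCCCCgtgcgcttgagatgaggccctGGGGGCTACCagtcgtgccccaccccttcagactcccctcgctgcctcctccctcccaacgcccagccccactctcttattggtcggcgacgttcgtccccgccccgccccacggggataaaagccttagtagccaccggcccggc
Rgs2: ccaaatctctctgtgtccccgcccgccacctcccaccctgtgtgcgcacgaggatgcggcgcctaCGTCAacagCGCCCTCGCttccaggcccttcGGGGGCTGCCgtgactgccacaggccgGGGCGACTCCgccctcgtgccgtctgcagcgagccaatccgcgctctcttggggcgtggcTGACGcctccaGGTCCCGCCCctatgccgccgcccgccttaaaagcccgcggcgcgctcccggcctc

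Both strands of these windows were searched for letters bound by factors that follow T cell receptor signals. In the Rgs16 window the capitals are matches to the NF-kB pattern, GGG and CC with any 5 bases between them, which overlap at 179 to 177 bases before the start and recur at 146. In the Rgs2 window they are the NF-kB pattern at 154, 127 and 56 bases, GCGNGGGCG (EGR) at 176 bases, and TGACG (part of the cAMP response site TGACGTCA) at 185 and 67 bases. The NF-kB pattern stands in 45.8% of 32851 RefSeq windows of the same length, GCGNGGGCG in 4.70% and TGACG in 17.8%. Neither window holds TGACGTCA, found in 1.55% of all windows, or the AP-1 letters TGANTCA, found in 6.75%. The NR4A site AAAGGTCA, found in 1.34% of windows, is in neither. The IRF pattern, GAAA repeated after any 2 bases and found in 2.98%, is absent from both. So are the NFAT core TGGAAA, found in 18.6% of windows, and the TATA box letters, TATAAA, found in 12.4%. CACCC (KLF) is found in both and in 52.0% of windows, and was left in lower case. GC content was 66.4% for Rgs16 and 72.4% for Rgs2, against a median of 52.4% over all windows. The shares of windows given above are not matched for GC content. Among the 10 windows listed for RGS genes, 8 held the NF-kB pattern. A match to letters is no evidence that a factor binds there. Only these exact patterns were searched, so their absence does not show that variants of a site are absent.

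Genes induced by the T cell receptor were measured as a list beside Rgs16 and Rgs1. The list of 11 tested genes included Cd24a, a surface protein that also marks immature thymocytes and is lost as they mature, which fell 1.69-fold (limma adjusted p = 0.00584). Of the other 10 genes, a count chosen after seeing the data, 7 fell and 0 rose (limma; 9 lower and 0 higher at an unadjusted p under 0.05), with a median of -0.33. Irf4 fell 1.48-fold (limma adjusted p = 0.00118), Pdcd1, which encodes the inhibitory receptor PD-1, 1.46-fold (0.00447), and Nr4a1, a nuclear receptor induced early by receptor signals, 1.24-fold (0.0152). The summed signal of these 10 genes was 13.32 to 13.51 in WT and 13.08 to 13.20 in KO, without overlap. Of 7 regulatory T cell markers 3 fell and 0 rose (4 lower and 0 higher unadjusted), with summed signals of 12.02 to 12.18 in WT and 11.65 to 11.94 in KO, while Foxp3, which defines that lineage, differed by 0.17 (adjusted p = 0.505). Of 9 genes of mature single-positive thymocytes 7 rose and 0 fell (8 higher and 0 lower unadjusted), with summed signals of 13.94 to 14.02 in WT and 14.28 to 14.34 in KO. Over all tested genes 4.45% were called higher and 8.53% lower. These lists were chosen with earlier results of these data known, so their counts are a description with no test. The part of these cell states in the lower Rgs16 and Rgs1 signals was not tested.

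Rgs19, the single gene of the RZ subfamily among the members, encodes a palmitoylated protein that acts on Gi. It stood at 10.45, 10.55, 10.53 and 10.59 in WT and at 10.53, 10.50, 10.52 and 10.56 in KO, and all KO arrays lay inside the WT range. Its difference was -0.0018 (SE 0.048, limma adjusted p = 0.985). The 95% interval ran from -0.11 to 0.11, so that a change of more than 0.11 log2 in either direction lay outside it.

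Rgs11 belongs to the R7 subfamily, whose proteins are stable only when paired with the beta subunit encoded by Gnb5 and which is studied mostly in retina and brain. It stood at 7.10, 7.87, 7.58 and 7.71 in WT and at 8.28, 8.15, 8.14 and 8.21 in KO. All KO arrays lay above all WT arrays and within 0.14 log2 of each other, while the WT arrays spanned 0.77 with replicate 1 the lowest. Rgs11 rose 1.55-fold, by 0.63 log2 (SE 0.14, limma adjusted p = 0.0185), from 7.57 ± 0.33 to 8.20 ± 0.064 (SD, n = 4 per genotype). Without WT replicate 1 the difference was 0.47. Leaving out KO replicate 1 ended the call (adjusted p = 0.0539), as did adding the heat-shock level to the fit (0.0541). The difference was 0.60 in the first case and 0.58 in the second. Gnb5 stood at 6.39, 6.83, 6.59 and 7.07 in WT and at 6.49, 6.38, 6.38 and 6.36 in KO. Its difference of -0.32 was not called (adjusted p = 0.124), and the genotypes overlapped through the low WT replicate 1.

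**Figure D2:**
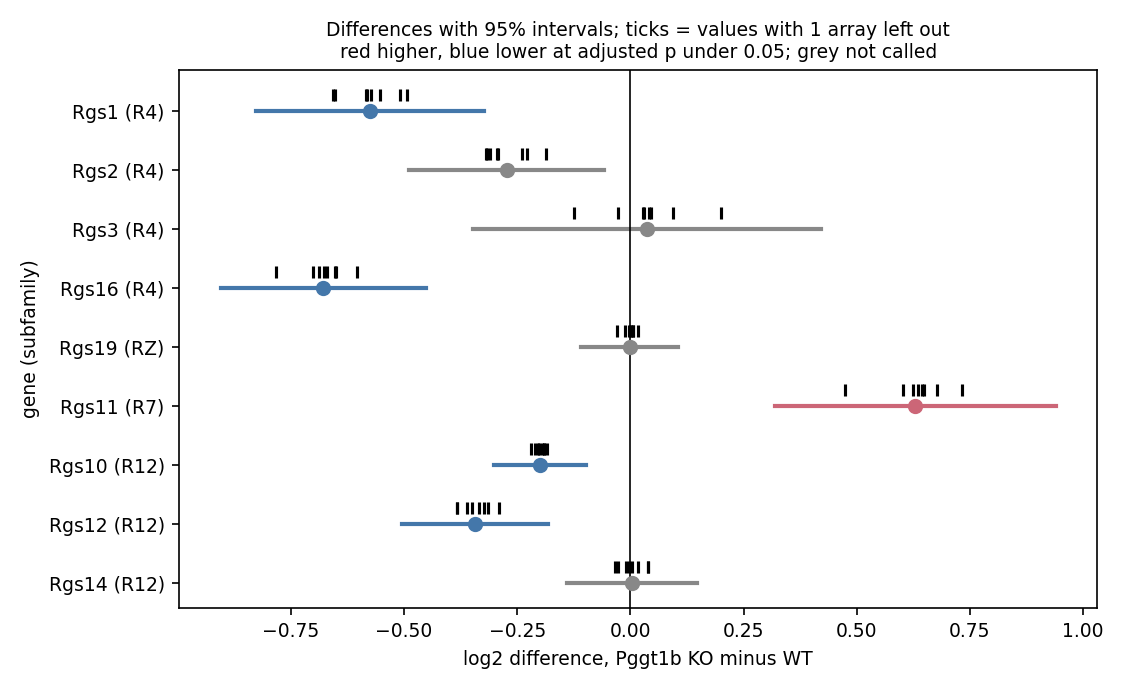
Log2 difference, KO minus WT, of the 9 tested RGS genes with 95% intervals of the limma fit, coloured where the adjusted p was under 0.05, and with black ticks for the values when 1 array is left out. Rgs16, Rgs1, Rgs12 and Rgs10 lie below 0 and Rgs11 above it under every array left out, and the ticks of Rgs3 lie on both sides, from -0.12 to 0.20.

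All 3 genes of the R12 subfamily were tested, and 2 fell and 0 rose (limma; 2 lower and 0 higher at an unadjusted p under 0.05). Over all tested genes 8.53% were called lower. Rgs10, a small RGS protein of immune cells that acts on Gi, stood at 11.21, 11.24, 11.16 and 11.27 in WT and at 11.01, 11.02, 10.99 and 11.05 in KO. The groups did not overlap. Its difference was the smallest among the called RGS genes, and both genotypes were tight, at 11.22 ± 0.046 and 11.02 ± 0.026 (SD, n = 4 per genotype). Rgs10 fell 1.15-fold, by 0.20 log2 (SE 0.046, limma adjusted p = 0.0213). Its call was lost when WT replicate 2 (adjusted p = 0.0581), KO replicate 1 (0.0587) or KO replicate 3 (0.0584) was left out, under no intensity filter (0.0581) and once the heat-shock level entered the fit (0.0548). The difference with the heat-shock level was still -0.20, with an SE of 0.052.

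Rgs12 and Rgs14 are larger proteins that also carry Ras-binding domains and a GoLoco motif, which holds Gi alpha subunits in their GDP-bound form. Rgs12 stood at 5.88, 6.01, 5.73 and 5.80 in WT and at 5.53, 5.42, 5.45 and 5.63 in KO. The groups did not overlap, and the KO mean of 5.51 lay under the filter value of 5.56 while the WT mean of 5.85 lay above it, so Rgs12 was tested through the group where it is high. Rgs12 fell 1.27-fold, by 0.34 log2 (SE 0.072, limma adjusted p = 0.0150), with an adjusted p of 0.0292 under no intensity filter. A filter at a mean of 6 leaves Rgs12 untested, and the RGS genes called lower then number 3. Without single arrays its adjusted p ran from 0.0175 to 0.0430. Rgs14 stood at 9.36, 9.51, 9.43 and 9.58 in WT and at 9.47, 9.36, 9.49 and 9.57 in KO, where the genotypes covered almost the same range. Its difference was 0.0032 (SE 0.064, 95% interval -0.14 to 0.15, limma adjusted p = 0.980).

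Spread within a genotype set several of these genes apart in opposite ways. The median SD over all tested genes was 0.095 in WT and 0.086 in KO. Rgs3 had a KO SD of 0.43 and a WT SD of 0.026. Rgs11 and Rgs16 showed the reverse, with WT SDs that were 5.16 and 3.57 times the KO SDs and ratios that ranked 193 and 518 of 11585 tested genes. Rgs1, Rgs2, Rgs12 and Rgs14 had SD ratios of KO to WT between 0.779 and 1.28. These ranks describe 4 arrays per genotype and carry no test.

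**Figure D3:**
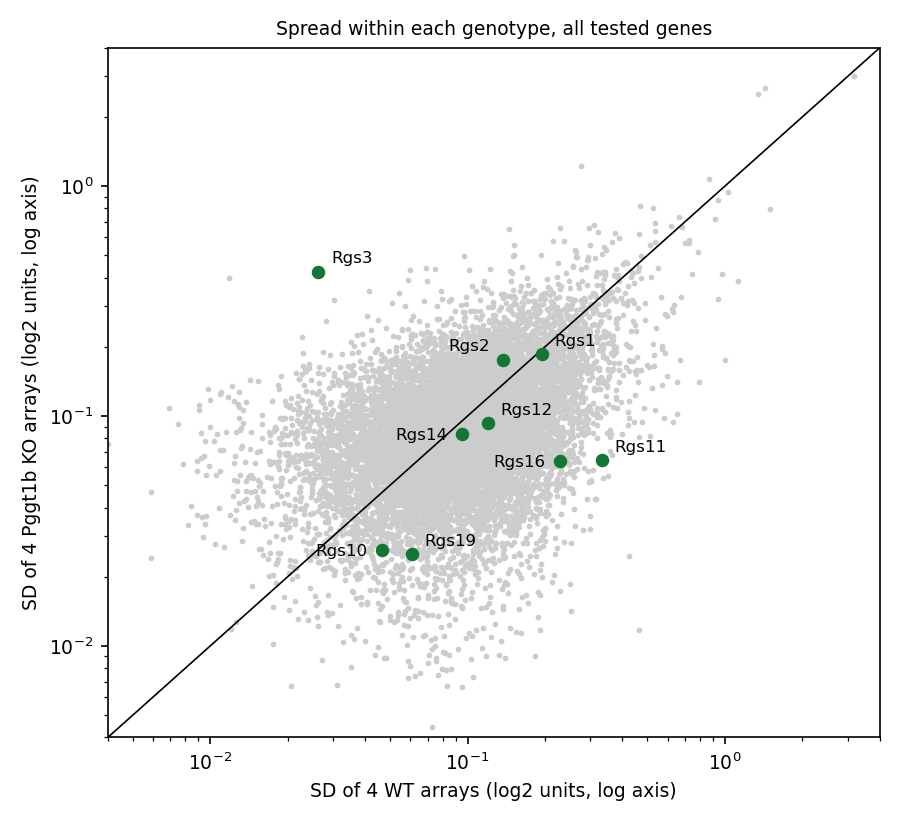
SD of the 4 KO arrays against the SD of the 4 WT arrays for all tested genes (grey) and the 9 tested RGS genes (green), on log axes with the line of equal SD. Rgs3 lies far above the line, at 0.43 against 0.026, and Rgs11 and Rgs16 lie below it.

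The rest of the family and of the pathway was read from 8 lists with 104 names, of which 92 had a probe set of their own and 68 were tested. In these lists 6 genes rose and 7 fell, 19.1% of those tested against 13.0% over all genes, and their median difference was -0.03. Of the other 11 RGS genes 2 were tested, Rgs8 at 0.08 (adjusted p = 0.574) and Rgs9 at -0.01 (0.928), and the remaining 9 had mean signals of 3.14 to 4.66. Of 9 proteins with an RGS-like domain Snx14, a sorting nexin, rose 1.16-fold (adjusted p = 0.0429) and 0 fell (2 higher and 0 lower unadjusted). Arhgef1, whose RGS-like domain receives G12 and G13 signals in lymphocytes, differed by 0.08 (0.304). The median of this list was -0.0068.

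The alpha subunits, the direct targets of RGS proteins, held 9 tested genes of which limma called 0 (0 higher and 1 lower at an unadjusted p under 0.05), with a median of -0.02. Gnai2, the Gi subunit through which chemokine receptors signal in lymphocytes, stood between 11.46 and 11.53 in WT and between 11.42 and 11.50 in KO, a difference of -0.04 (adjusted p = 0.645). Gnaq, the alpha subunit of the Gq class on which Rgs2 acts, stood at -0.33 (adjusted p = 0.0690). Of 10 beta and gamma genes 2 fell and 0 rose (3 lower and 0 higher unadjusted), with a median of -0.12. The gamma subunit Gng2 stood at 9.34, 9.42, 9.14 and 9.41 in WT and at 8.55, 8.47, 8.75 and 8.67 in KO, without overlap, and fell by 0.72 log2 (SE 0.080, adjusted p = 0.000889). Gngt2, another gamma subunit, fell 1.26-fold (adjusted p = 0.00447), and Gnb1 differed by -0.00046 (0.995).

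**Figure D4:**
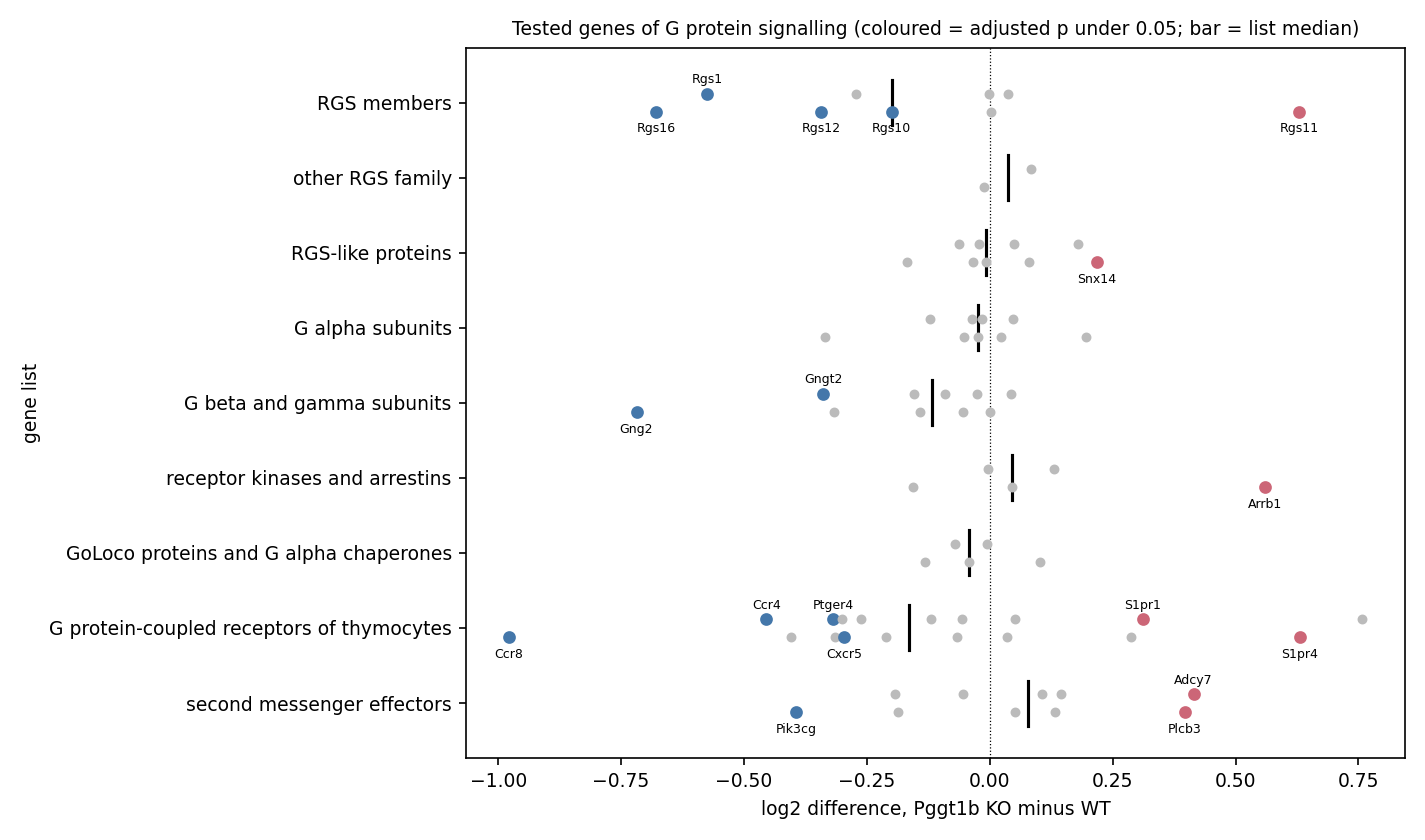
Log2 difference, KO minus WT, of each tested gene in the RGS set and in the 8 lists of G protein signalling, coloured and named where the adjusted p was under 0.05, with a bar at each list's median. The RGS set has 4 blue points and 1 red point, the alpha subunits have none, and receptors and effectors have points of both colours.

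Upstream and downstream of the G proteins, changes ran both ways. Among 5 receptor kinases and arrestins, which end signalling at the receptor rather than at the G protein, Arrb1 rose 1.47-fold (SE 0.070 log2, limma adjusted p = 0.00155) and 0 fell (1 higher and 1 lower unadjusted), with a list median of 0.04. Arrb1 stood at 9.79, 9.76, 9.68 and 9.98 in WT and at 10.37, 10.31, 10.30 and 10.46 in KO, without overlap. Of 5 GoLoco proteins and alpha chaperones limma called 0 (0 at an unadjusted p under 0.05), with a median of -0.04. Of 18 receptors 2 rose and 4 fell (3 higher and 8 lower unadjusted), with a median of -0.17. They were the sphingosine 1-phosphate receptors S1pr4, up 0.63 log2 (adjusted p = 0.000224), and S1pr1, which the mature thymocyte list also holds, up 0.31 (0.00698), and the chemokine receptors Ccr8, Ccr4 and Cxcr5 and the prostaglandin receptor Ptger4, at -0.98, -0.45, -0.30 and -0.32 (8.00e-05, 0.0380, 0.0346 and 0.0275). Of 10 effectors 2 rose and 1 fell (3 higher and 3 lower unadjusted), with a median of 0.08. The adenylyl cyclase Adcy7 rose 1.33-fold (0.00495) and the phospholipase Plcb3 1.32-fold (0.0212), and Pik3cg, the phosphoinositide kinase activated by beta-gamma, fell 1.31-fold (0.00515).

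Several of these pathway calls ended when 1 array was left out. Snx14 stayed called only on removal of WT replicate 4 (adjusted p otherwise 0.0652 to 0.106), Cxcr5 only on removal of WT replicate 3 (otherwise 0.0561 to 0.0949), and Ccr4 only on removal of WT replicate 1 or of KO replicate 3 (otherwise 0.0655 to 0.102). Ptger4 lost its call on removal of WT replicates 1 and 3 and KO replicates 2, 3 and 4, each taken singly (0.0556 to 0.0711). Plcb3 lost it for WT replicate 3 and for KO replicates 2 and 4 (0.0514 to 0.0542). Gng2, Gngt2, Arrb1, S1pr1, S1pr4, Ccr8, Adcy7 and Pik3cg stayed called under each single array left out. Without KO replicates 1 and 2 together, S1pr1 (0.0660), Adcy7 (0.0532) and Pik3cg (0.0801) lost their calls, as did Snx14, Ccr4, Cxcr5, Ptger4 and Plcb3. With the heat-shock level in the fit, the calls of Snx14 (0.109), Ccr4 (0.0979), Cxcr5 (0.0891) and Plcb3 (0.0504) ended. With no intensity filter those of Snx14 (0.0915), Ccr4 (0.0631), Cxcr5 (0.0648) and Ptger4 (0.0506) ended.

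Markers of other cells were measured beside these genes. The B cell list had 1 of 7 genes above the filter, the myeloid and dendritic list 3 of 9 and the erythroid list 0 of 1, and limma called 0 of them (1 myeloid gene higher at an unadjusted p under 0.05). Their summed signals overlapped between genotypes, at 8.16 to 8.33 in WT and 8.24 to 8.43 in KO for B cells, 8.24 to 8.44 and 8.20 to 8.50 for myeloid cells, and 4.48 to 5.10 and 4.79 to 5.13 for the erythroid gene. The innate-like and NK list had 5 of 9 above the filter, 1 higher and 2 lower (1 higher and 3 lower unadjusted), with a median of -0.37. Klrd1, whose WT mean of 5.03 lay under the filter, rose 7.49-fold (limma adjusted p = 0.000145). Nkg7 fell 1.78-fold (0.0179) and Zbtb16 1.61-fold (0.0453). The sums of this list, which do not show these opposed changes, were 9.04 to 9.82 in WT and 9.33 to 9.58 in KO. In the epithelial, stromal and endothelial list 6 of 7 passed and 1 rose, Pecam1, a surface protein that T cells also carry (1 higher and 0 lower unadjusted). Its sums were 10.94 to 11.12 in WT and 11.15 to 11.24 in KO. Sums are taken before the log2 and so follow the brightest gene. Here that is Pecam1, at a mean of 10.83 over all arrays against 6.47 for Krt8, the next brightest. The double-positive and CD8 lineage list had summed signals of 11.63 to 11.91 in WT and 11.27 to 11.61 in KO, and 1 of its 8 genes was called, Cd8a, lower in KO (0 higher and 3 lower unadjusted). Of 11 dissociation and heat-shock genes 1 rose and 1 fell (1 higher and 2 lower unadjusted), with summed signals of 12.13 to 12.44 in WT and 12.05 to 13.03 in KO. Jun rose 1.88-fold (limma adjusted p = 0.0288) with overlapping arrays, and Egr1 fell 1.28-fold (0.00733) without overlap. The part of these cells and of this response in the RGS values was not tested.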

How the data were processed

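RNA of 8 samples was hybridised to Affymetrix mogene2st arrays after whole-transcriptome amplification of nanogram inputs, per the labels' protocols. The authors deposited log2 signals for each probe set, and the submitters' processing notes name RMA and Affymetrix Expression Console 1.1. No genome build is stated in the labels.

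The table held 41345 probe sets. A platform annotation, which can be old, gave 1 symbol for 23521, several for 1814 and none for 16010. The brightest single-symbol probe set stood for each of 22180 genes, and 11585 genes whose mean reached 5.56, the median of all probe set means, were tested. The genotypes were compared in limma 3.58.1 under R 4.3.3 (two-sided, genotype as the only term, Benjamini-Hochberg adjustment over all tested genes), which was tested on simulated data. This fit gave every adjusted p-value for which no other setting is stated. Entrez IDs of the 10 probe sets matched RefSeq symbols. The number of arrays limits the precision.

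The genes named are the 10 members, called genes of the pathway lists with up to 2 others per list by p, genes whose role the text states, and markers. Members and lists were chosen with earlier results of these data known. Fold sizes are powers of 2 of the log2 difference.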

Additional observations from a re-analysis of the deposited data

Results flagged for a closer look

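In a check for single arrays far from the rest of their genotype, 1 of 48 groups of 4 arrays stood out, and chance gives about 1 in 20. It was Pik3cg in WT replicate 1, at 9.47, where the nearest other WT array was 9.65.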

How the results depend on the processing

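Directions of the 5 called RGS genes held in all 99 alternatives, and their calls in 79 of these. Some alternatives leave the difference of these genes unchanged by construction, so they can alter only the call and say nothing about direction. They are the changed intensity filters, averaging over probe sets, other limma variance settings, all probe sets tested, and the threshold of 0.01. The count of RGS genes higher in KO, 1 as reported, was 0 with the heat-shock covariate, with all probe sets tested, at an adjusted p under 0.01 and without KO replicates 1 and 2 together, and 0 to 1 when single arrays were left out. The count lower, 4 as reported, was 1 with all probe sets tested and at an adjusted p under 0.01 (Rgs16 in both), 0 without KO replicates 1 and 2 together, and 3 to 4 without single arrays. Calls over all genes, 1503 as reported, numbered 920 with no intensity filter, 874 with the heat-shock covariate, 579 over all probe sets and 446 at 0.01. They numbered 258 without KO replicates 1 and 2, and 813 to 1441 without single arrays. Other settings gave more calls, among them 1704 with arrays centred and up to 1776 after a second quantile normalization. Of the uncalled genes, Rgs3 turned to -0.020 with the title number as a covariate, Rgs19 to 0.0012 after a second quantile normalization and 0.0092 without KO replicates 1 and 2, and Rgs14 to -0.031 with arrays centred and -0.034 with the title number. Without single arrays Rgs3 ranged from -0.12 to 0.20, Rgs19 from -0.030 to 0.018 and Rgs14 from -0.035 to 0.039. The cause was not tested. No paired analysis was possible because the labels give no replicate numbers shared between genotypes.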

Other observations

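For each called RGS gene, the tested gene whose deviations from its genotype means were most alike over the 8 arrays was found. It was Zfp994 for Rgs1 (Pearson r = 0.97, Spearman rho = 1, and r = 0.88 without the 2 arrays farthest from the median), Lrfn2 for Rgs16 (0.97, 0.93 and 0.80), Apbb3 for Rgs11 (0.99, 0.88 and 0.91), Rbms1 for Rgs10 (0.99, 1 and 0.97) and 2510009E07Rik for Rgs12 (0.98, 0.93 and 0.94). Mrtfa, which encodes an actin-responsive coactivator of SRF, followed for Rgs1 (0.97, 0.95 and 0.87). Each was picked as the highest of all tested genes, so these values are a description with no test.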
